A study of Mus musculus with 44 samples.

Results

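The regions described here are 1470 stretches of accessible chromatin in cultured mouse cortical neurons. They ranked within a fixed cutoff in most libraries of Smarcc2-knockout neurons given wild-type Smarcc2 and of neurons with a non-targeting guide RNA. In the knockout with an empty vector they ranked beyond it, some of them only just. They are called rescued regions below. In each of 12 peak lists the 75000 autosomal intervals with the best −log10 p were kept, and the kept intervals were merged into 116914 regions. A library held a region when one of its kept intervals overlapped it. A rescued region was held by at least 3 of 4 wild-type add-back libraries, by 0 of 4 vector libraries and by at least 3 of 4 non-targeting libraries, which left 1470 regions, or 1.26% of the table. The regions were thus chosen by the interval ranks in those 3 arms, which are given below as a description with no test.

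Accessible DNA was mapped by ATAC-seq, in which a transposase cuts DNA it can reach, in primary neurons from the cortex of mouse embryos at embryonic day 16.5. The 44 libraries form 22 groups of 2. At 18 days in vitro (DIV18) there were 5 arms: Smarcc2 knockout with Smarcc2 S586E added back, the knockout with Smarcc2 S586A, the knockout with wild-type (WT) Smarcc2, the knockout with an empty vector, and neurons with a non-targeting guide and their own Smarcc2. Each of these arms had 2 libraries with 30 min of 50 mM KCl and 2 unstimulated ones. At DIV7, neurons labelled wild type received 100 nM FHT1015 or 0.1% DMSO for 10 or 30 min, each with KCl for the same time or unstimulated. A second DIV7 set compared Arid2 knockout (Arid2KO) with a non-targeting guide, each with 30 min of KCl or unstimulated. All wells had been silenced overnight with tetrodotoxin and D-AP5, and DNase was added to them, per the labels. The labels take each embryo's cortex as a biological replicate but tie no library to an embryo, so p-values measure the spread between these libraries, which may be technical.

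The BAF complex is a chromatin remodeler that uses ATP to slide or evict nucleosomes, and it keeps many enhancers open. Smarcc2 is one of its core scaffold subunits and is prominent in the forms of the complex found in the nervous system. An alanine in place of a serine cannot be phosphorylated, and a glutamate is commonly used to imitate the charge of a phosphate. FHT1015 inhibits the ATPases of the complex, and Arid2 is a subunit of PBAF, a form of the complex that has its own set of subunits.

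Most rescued regions lay away from gene starts, and no genome sequence of the build was used here, so sequence is shown for 4 of those that overlap a RefSeq promoter window. Such a window runs from 250 bases before to 50 bases after an annotated start (RefSeq, build GRCm38.p6, the same as mm10), and 7 windows overlapped a rescued region. The first 3 below are shown because the results return to their regions in libraries that did not enter the rule, and the last because it held the most matches to a motif, 5. Il33 encodes a cytokine released by damaged cells, Asb2 a substrate adaptor of a ubiquitin ligase, Rd3l a protein related to the retinal protein Rd3, and Gm46592 is a predicted gene. Capitals mark matches to the E-box letters CAGNTG on either strand, the general form bound by many neuronal basic helix-loop-helix factors. The windows are Il33 at chr19:29945540-29945839 on the plus strand, Asb2 at chr12:103338341-103338640, Rd3l at chr12:111980702-111981001 and Gm46592 at chr17:8347859-8348158, the last 3 on the minus strand.
Il33: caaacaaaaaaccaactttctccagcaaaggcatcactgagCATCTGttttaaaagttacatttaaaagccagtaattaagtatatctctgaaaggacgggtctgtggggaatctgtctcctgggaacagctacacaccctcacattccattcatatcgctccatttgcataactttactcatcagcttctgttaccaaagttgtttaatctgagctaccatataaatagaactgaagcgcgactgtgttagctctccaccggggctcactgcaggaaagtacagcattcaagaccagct
Asb2: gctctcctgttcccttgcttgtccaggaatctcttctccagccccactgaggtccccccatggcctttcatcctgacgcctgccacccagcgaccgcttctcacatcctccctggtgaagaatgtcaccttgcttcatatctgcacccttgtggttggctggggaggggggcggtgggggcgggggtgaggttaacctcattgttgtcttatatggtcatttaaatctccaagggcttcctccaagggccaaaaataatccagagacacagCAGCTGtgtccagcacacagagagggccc
Rd3l: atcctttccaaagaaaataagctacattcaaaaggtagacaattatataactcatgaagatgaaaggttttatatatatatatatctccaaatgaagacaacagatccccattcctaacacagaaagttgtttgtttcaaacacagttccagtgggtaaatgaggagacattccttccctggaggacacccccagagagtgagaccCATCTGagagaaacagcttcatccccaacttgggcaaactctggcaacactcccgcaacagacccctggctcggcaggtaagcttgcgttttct
Gm46592: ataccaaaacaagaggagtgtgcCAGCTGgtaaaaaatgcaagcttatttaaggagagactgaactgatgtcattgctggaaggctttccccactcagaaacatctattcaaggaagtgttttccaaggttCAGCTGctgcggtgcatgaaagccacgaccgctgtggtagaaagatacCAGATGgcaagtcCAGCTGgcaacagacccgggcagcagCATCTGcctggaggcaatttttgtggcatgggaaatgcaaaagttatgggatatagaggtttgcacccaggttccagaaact
The E-box letters were found in 6 of the 7 windows and in 51.4% of all 32851 promoter windows. The AP-1 letters TGANTCA were in 1 of 7 windows, against 7.81% of all. The letters of the CRE (TGACGTCA, 1.79% of all windows) were in 0 of 7. Both strands were searched, no counts of overlapping matches between motifs were made, and a match is a description of letters only.

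The libraries differed in ways that touch these regions. A background level of 0.942 to 8.39 reads piled up per base, read from the deposited fold enrichments, stands in for depth, since no read counts were used. At DIV18 the vector libraries had a background of 1.69 to 1.99, inside the range of 0.942 to 3.68 of the other 16 libraries. Their lists were shorter, with 165089 to 215071 intervals against 189540 to 266049, and their fold enrichment at rank 75000 was lower, 5.40 to 6.36 against 6.18 to 8.20. One S586E unstimulated library stood apart with the lowest background, 0.942. As a check of the labels, 20 to 26 kept intervals lay inside the Smarcc2 gene in S586E, 21 to 23 in S586A and 19 to 23 in WT add-back libraries, against 2 to 3 in vector and 2 to 4 in non-targeting libraries at DIV18. These lists do not measure the loss of Smarcc2 or Arid2 itself. Regions at 12 of 13 gene lists, markers of other cell types among them, had mean scores in vector libraries that overlapped those of the other DIV18 libraries. Regions at excitatory neuron genes did not, with 1.34 to 1.40 in vector libraries against 1.04 to 1.27 in the others, and the part of cell makeup in the results was not tested. In bulk libraries a smaller share of cells with an open region and less opening per cell cannot be told apart.

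The rescued regions were mostly distal. Of the 1470, 35 (2.38%) lay within 1 kb of an end of a protein-coding gene, against 14.1% of all regions and 26.4% of the 46558 regions held by all 3 arms of the rule. Another 707 (48.1%) lay inside a gene, against 49.4% of all regions. The remaining 728 (49.5%) lay outside genes, against 36.5%. Of these, 277 (18.8% of the 1470) were more than 100 kb from the nearest protein-coding gene, against 10.2% of all regions. The median width was 596.5 bp, against 621 bp in the table and 1082 bp in the regions held by all 3 arms. Of the regions of each chromosome, 1.03% to 1.58% were rescued. The regions lay inside or nearest to 1276 genes, 1109 of which had 1 rescued region. Lsamp, a neuronal adhesion molecule, had 5 and Wwox, an oxidoreductase, had 4. These genes were singled out after their values were seen, and they are long loci with 58 and 32 regions in the table.

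They were regions of moderate strength rather than the best peaks. A region's rank score is log2(133009 / r), where r is the rank of its best overlapping interval and the shortest list has 133009 intervals; the score is 0 where r is larger or no interval overlaps. A score 1 higher means a rank divided by 2, and rank 75000 has a score of 0.83. The median mean score over the WT add-back and non-targeting libraries was 1.24, against 2.38 for the regions held by all 3 arms. The median rank was 57464.5 and 63496.5 with KCl and 52737.5 and 57419.5 unstimulated in WT add-back libraries. In vector libraries it was 138573 and 151475.5 with KCl and 103132.5 and 114143 unstimulated. In non-targeting libraries it was 57207.5 and 57822.5 with KCl and 46445.5 and 51546.5 unstimulated. The vector values were weakest with KCl, where 464 and 666 rescued regions had no interval at all, against 122 and 151 in unstimulated vector libraries and 0 to 3 in each WT add-back or non-targeting library. These libraries entered the rule, their lists differed in length, and no share over all regions is given beside the counts. The counts are a description only.

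The rule cuts through a continuum. The best vector rank of a rescued region had a median of 87214.5 and quartiles of 79658 and 101071. In 385 regions (26.2%) it lay at 80000 or better, in 387 (26.3%) it was beyond 100000 or there was none, and 15 regions had no interval in any vector library. Just inside the rule, a region in Lnx2 (a ubiquitin ligase, chr5:147068609-147069385) had its best vector rank at 75008 and one in Slc35f1 (chr10:52854223-52854726) at 75012. Just outside it, a region near Angpt1 (chr15:42309652-42310080) was at 75000 and one near Lmtk2 (chr5:144081890-144082523) at 74993 in a vector library. All 8 WT add-back and non-targeting libraries held 476 of the rescued regions. The opposite patterns also existed: 112 regions were held by vector and non-targeting but not WT add-back libraries, 232 by WT add-back and vector but not non-targeting libraries, and 704 by vector libraries alone. Without the first unstimulated vector library the rule gave 2417 regions, and leaving out any other library gave 1632 to 2102. The rule asked less of an arm with fewer libraries, so each of these sets held all 1470 by construction. That is no sign of a stable set. Lists of 60000 and 90000 intervals gave 1202 and 1716 regions and kept 430 and 643 of the 1470.

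**Figure D1:**
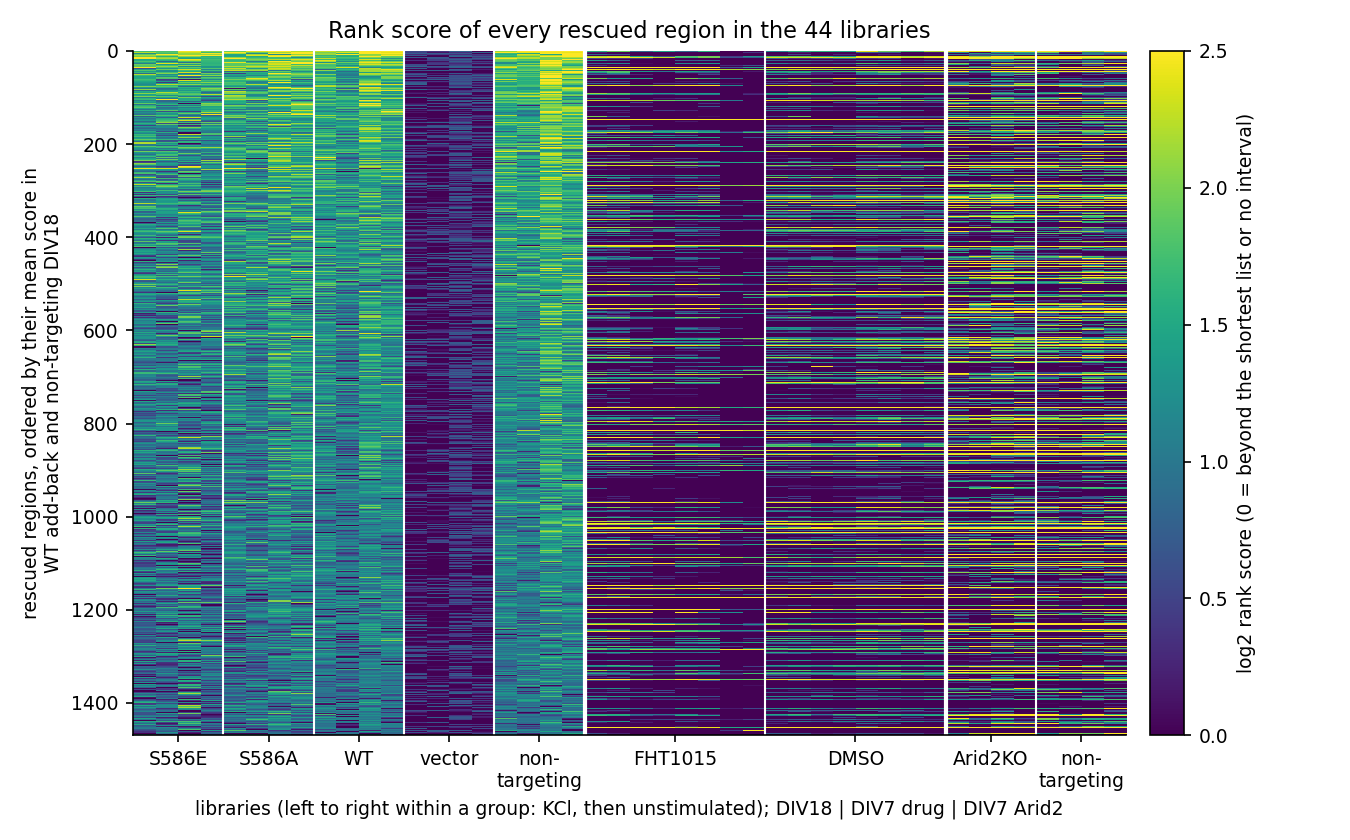
Each row is 1 of the 1470 rescued regions and each column 1 of the 44 libraries; colour is the log2 rank score, with the arms in the order S586E, S586A, WT add-back, vector and non-targeting at DIV18, then FHT1015 and DMSO, then Arid2KO and non-targeting at DIV7. The vector columns are dark by the rule, the S586A and S586E columns are bright in most rows, and the DIV7 columns split the rows into a dark majority and a bright minority.

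The strongest rescued regions show this best. They were taken as the 8 with the highest mean score among those held by all 8 libraries of WT add-back and non-targeting, and the 7 described here lay inside or near Ptgs1, 4930444P10Rik, Dab2ip, Nup160, Ing2, Cdh5 and Inpp4b. One lay near Dab2ip, the gene of a Ras GTPase-activating protein (chr2:35529685-35530588). The S586E add-back, which did not enter the rule, had ranks of 39820 and 38356 with KCl and 24228 and 31622 unstimulated there. The S586A add-back had 34525 and 25396 with KCl and 23531 and 28592 unstimulated. In WT add-back libraries the ranks were 27243 and 32078 with KCl and 23712 and 18761 unstimulated. In vector libraries they were 91556 and 101856 with KCl and 76966 and 131752 unstimulated. In non-targeting libraries the ranks were 30094 and 20039 with KCl and 17268 and 16265 unstimulated. The rule required the vector ranks to be low and the WT add-back and non-targeting ranks to be high, so the distance of any arm from the vector libraries is a description only.

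The region inside Ptgs1, the gene of a cyclooxygenase (chr2:36222372-36223187), was lower with KCl in both S586 mutants. Its ranks in S586E libraries were 30315 and 30303 with KCl and 14404 and 15791 unstimulated. In S586A libraries they were 29041 and 29463 with KCl and 17076 and 18139 unstimulated. Over both add-backs its score was lower with KCl by −0.87 ± 0.20 (SE; limma adjusted p = 0.00733), and all 4 KCl-treated libraries ranked it below all 4 unstimulated ones. At DIV7 it had no interval in any of 8 FHT1015 libraries and in 7 of 8 DMSO libraries. The Nup160 region (Nup160 is a nuclear pore subunit) and the Inpp4b region (Inpp4b is a phosphoinositide phosphatase) had scores of 0 in all 8 FHT1015 and all 8 DMSO libraries. The region near Cdh5, the cadherin of endothelial junctions, and the Dab2ip region were ranked 20516 to 38448 and 12789 to 28477 in the 4 non-targeting DIV7 libraries.

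**Figure D2:**
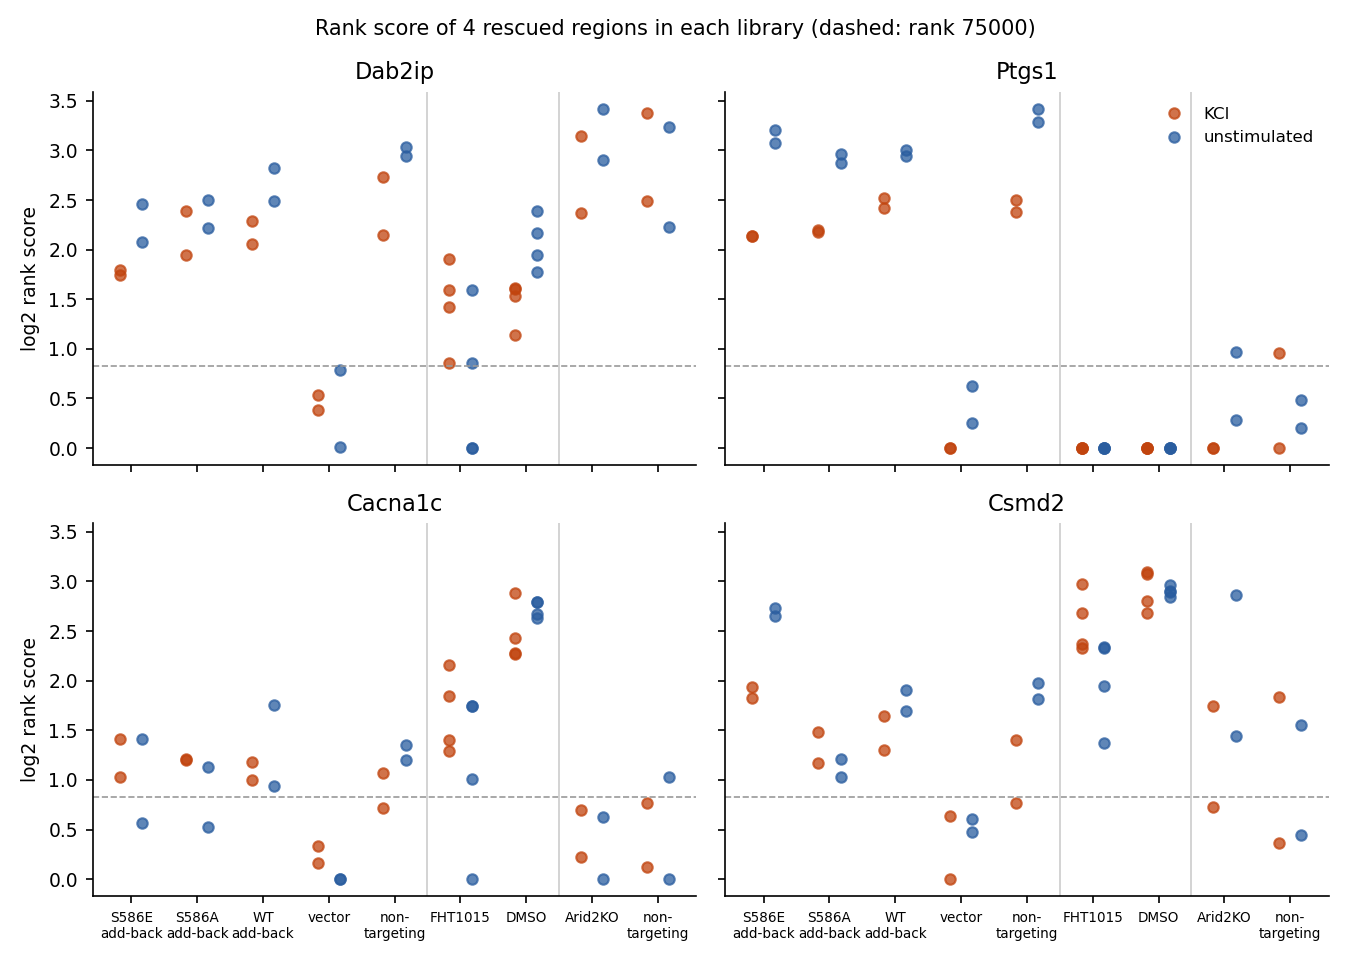
Rank score (log2) of the rescued regions at Dab2ip, Ptgs1, Cacna1c and Csmd2 in every library, by arm; orange points are KCl-treated and blue points unstimulated libraries, and the dashed line is rank 75000. All vector points lie under the line, the Ptgs1 region is at 0 in the drug libraries, and the Cacna1c region is lower in FHT1015 than in DMSO libraries.

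Gene lists held between 0 and 7 rescued regions each. The list of 36 synapse and excitability genes had 33 in the annotation. Of 945 regions inside these genes or within 1 kb of an end, 3 were rescued (0.317%, against 1.26% of all regions). These rescued regions lay in Nrxn3, a presynaptic adhesion molecule, Cacna1c, an L-type calcium channel, and Shank2, a postsynaptic scaffold. Of 398 regions at 21 axon guidance genes, 7 were rescued (1.76%): 2 in the semaphorin gene Sema5a and 1 each in the repellent genes Slit1 and Slit2, their receptor gene Robo1, the netrin receptor gene Unc5d and the ephrin receptor gene Epha4. One rescued region each lay in Cux2 (of 99 regions at excitatory neuron genes), Adarb2 (of 36 at inhibitory neuron genes), Aldh1l1 (of 57 at astrocyte genes) and Pcsk1 (of 55 at late activity genes). None lay at the genes of BAF subunits (243 regions), early activity genes (70), housekeeping genes (42), or markers of oligodendrocytes (48), vascular cells (34), progenitors (20) or microglia (15). The counts in most of these lists are too small to be read against 1.26%.

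The Aldh1l1 region, in a folate enzyme gene used as an astrocyte marker, was ranked 38616 to 65274 in the S586E and 43896 to 56058 in the S586A libraries. At DIV7 it had no interval or a rank of at least 109358 in each of the 24 libraries. The region in Cux2, a transcription factor of upper cortical layers, did the reverse: its ranks at DIV7 were 10796 to 15179 in Arid2KO and non-targeting libraries and 18922 to 27403 in drug libraries, but 37698 to 72593 in S586A and 49873 to 71927 in S586E libraries at DIV18. The Nrxn3 region had ranks of 46061 to 75620 in S586E and 43180 to 72193 in S586A libraries and no interval in any of the 16 drug libraries. The Slit1, Slit2 and Adarb2 regions were held by 3 of 4, 2 of 4 and 3 of 4 S586E libraries and by 4 of 4, 4 of 4 and 3 of 4 S586A libraries. The region in Pcsk1, a prohormone convertase, was held by 2 of 4 S586E and 0 of 4 S586A libraries, and that in Shank2 by 0 of 4 and 3 of 4.

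With either S586 mutant added back, most rescued regions were among the best 75000. The S586E add-back held 1010 and 994 of the 1470 with KCl and 967 and 959 unstimulated, a mean of 66.8% ± 1.61 (SD, n = 4). The S586A add-back held 1137 and 1072 with KCl and 1241 and 1210 unstimulated, a mean of 79.3% ± 5.16 (SD, n = 4). Over the whole table the S586E libraries held 54.6% to 58.5% of regions and the S586A libraries 58.5% to 59.2%. The wild-type add-back held 1286 and 1121 with KCl and 1349 and 1313 unstimulated, but these values were set by the rule and are no measure of a deficit in the mutants. Each S586E library held fewer rescued regions than each S586A library, also without the S586E library of lowest background, which held 967. The lists differed as well. S586E lists had 189540 to 248661 intervals and a fold enrichment at rank 75000 of 6.18 to 7.71. S586A lists had 207534 to 264596 intervals and a fold enrichment of 7.35 to 8.13. The part of these list differences in the numbers held was not tested.

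**Figure D3:**
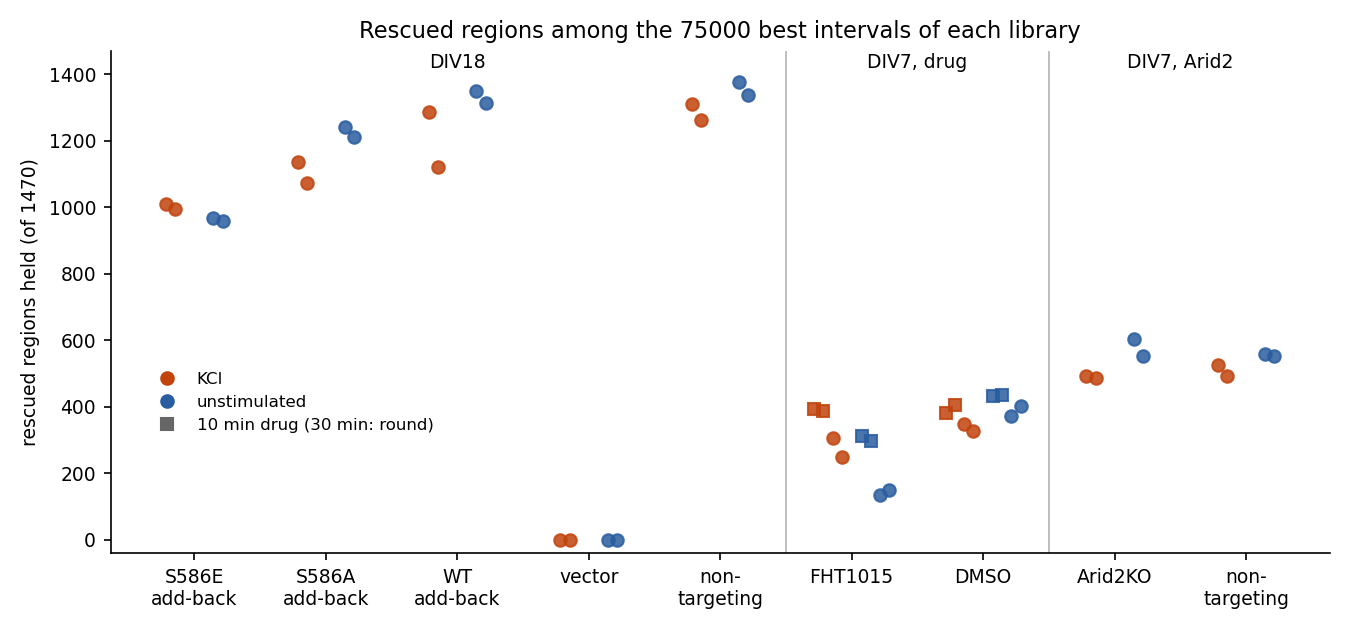
Number of the 1470 rescued regions held by each library, by arm; orange points are KCl-treated and blue points unstimulated libraries, and squares are 10 min and circles 30 min in the drug experiment. The vector points are at 0 and the WT add-back and non-targeting DIV18 points are high by the rule, while S586E lies at 959 to 1010, S586A at 1072 to 1241 and the DIV7 libraries at 134 to 605.

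Counted region by region, 883 rescued regions (60.1%) were held by at least 3 of 4 S586E libraries and 1141 (77.6%) by at least 3 of 4 S586A libraries; 772 (52.5%) met both. Both sets of 4 libraries held 285 regions throughout, and 1 region was held by none of the 8. More S586E than S586A libraries held 229 regions (15.6%, against 15.4% of the whole table), and more S586A than S586E libraries held 691 (47.0%, against 20.8%). At the extremes, 14 regions (0.952%, against 1.82%) were held by at least 3 S586E libraries and at most 1 S586A library, and 129 (8.78%, against 2.19%) showed the reverse. The whole table includes many regions far from rank 75000 in every library, which cannot change sides, so these shares describe where the regions lie and not how much more they changed.

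**Figure D4:**
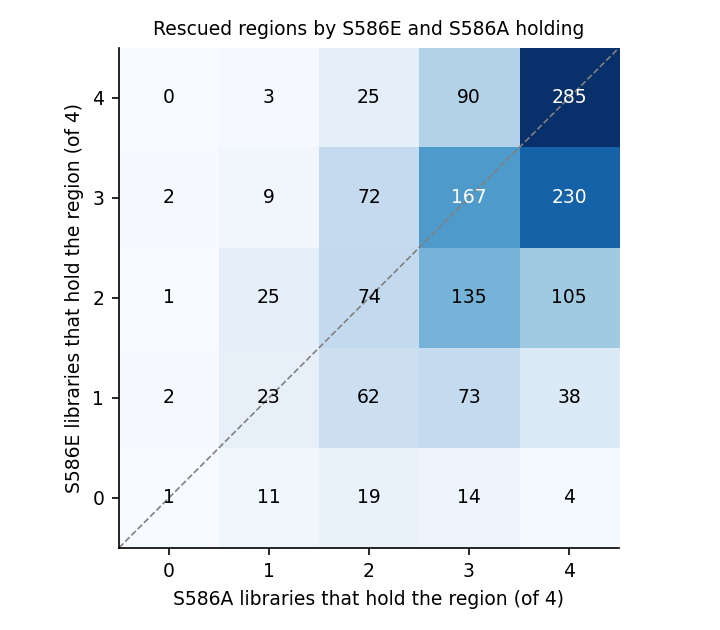
Number of rescued regions by how many of the 4 S586E libraries (vertical) and of the 4 S586A libraries (horizontal) held them; the dashed line marks equal numbers. The largest cell holds the 285 regions held by all 8, and 229 regions lie above the line and 691 below it.

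In the test across regions 1 rescued region differed between the mutants. Of 1456 rescued regions tested in the 8 libraries of S586E and S586A, limma called 1 higher and 0 lower in S586E (adjusted p under 0.05), against 0.438% and 0.0326% of all 85821 regions tested. At an unadjusted p under 0.05 there were 109, or 7.49% of those tested, against 9.45% of all regions. The median difference, S586E minus S586A, was −0.18 over these rescued regions and −0.05 over all regions tested, and 1068 of the 1456 differences were negative. The groups of 2 leave wide errors (an SE of 0.25 at Rd3l, for example), so differences of the size seen here could not be told from 0 in single regions. No rescued region was called for a difference of the KCl response between the mutants (0 higher and 0 lower, against 0.00699% and 0.00117% of all; 54 at an unadjusted p under 0.05).

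The region called higher in S586E lay inside Csmd2, a synaptic transmembrane protein gene (chr4:128491959-128492529). Its ranks were 37520 and 34842 with KCl and 20016 and 21153 unstimulated in S586E libraries. In S586A libraries they were 47447 and 59091 with KCl and 65270 and 57274 unstimulated, so the 2 sets did not overlap. The scores averaged 2.29 ± 0.47 in S586E and 1.23 ± 0.19 in S586A libraries (SD, n = 4 each), a difference of 1.06 ± 0.23 (SE; limma adjusted p = 0.0492). The call was lost in 10 of 12 alternatives, 7 of which left out a library, with differences of 0.98 to 1.14 in those that left out a library. The region at the Rd3l promoter printed above had the opposite sign. Its ranks were 137172 and 119889 with KCl and 133842 and 108782 unstimulated in S586E libraries, against 73676 and 75195 with KCl and 53870 and 49015 unstimulated in S586A libraries. The difference of −0.99 ± 0.25 was not called, and the 2 sets did not overlap. No S586E library held the Rd3l region, so it entered the test through the S586A libraries, where it was high. Its values are therefore given as a description.

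Rescued regions were called for KCl in the mutants less often than all regions tested, and more of them fell than rose. Over the 8 libraries of S586E and S586A, 23 rose and 61 fell with 30 min of KCl (1.58% and 4.19% of those tested, against 8.39% and 6.58% of all regions tested). By the rule, rescued regions had to be held both with KCl and unstimulated in the WT add-back and non-targeting arms. Regions held there only with KCl or only unstimulated were left out, so low shares called for KCl may be built in. The part of the rule in these shares was not tested. The largest rises were near Lbh, a transcription regulator named for limb bud and heart, in Fam241a, and near Cacna1e, an R-type calcium channel gene. The Lbh region (chr17:72972900-72973561) had ranks with KCl of 24713 and 26712 in S586E and 21351 and 29365 in S586A libraries, against 56846, 64493, 66974 and 60953 unstimulated. Its score was 1.29 ± 0.24 higher with KCl (limma adjusted p = 0.00192), with no overlap. The Fam241a region was 1.18 ± 0.26 higher (limma adjusted p = 0.00572) and the Cacna1e region 1.16 ± 0.27 higher (limma adjusted p = 0.00955).

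The largest falls were near Slc25a36, a mitochondrial nucleotide carrier, in Ust, a sulfotransferase gene, and at an end of Mettl24. The Mettl24 region (chr10:40813730-40814597) had ranks with KCl of 102317 and no interval in S586E and 90313 and 105995 in S586A libraries, against 40223, 49398, 45879 and 41734 unstimulated. Its score was lower with KCl by 1.27 ± 0.26. No KCl-treated library held the Mettl24 region, so it entered the test through the unstimulated libraries, where it was high. Its values are therefore given as a description. The Slc25a36 region fell by 1.39 ± 0.33 (limma adjusted p = 0.00886) and the Ust region by 1.34 ± 0.28 (limma adjusted p = 0.00437). The calls at Lbh and Fam241a held in each of 12 alternatives, those at Slc25a36 and Cacna1e in 8 and that at Ust in 11. The counts move with the method: ranking summits gave 13 rises and 135 falls, no filter 8 and 9, and the replicate block 41 and 90. They also rest on single libraries: leaving out 1 library gave 4 to 37 rises and 15 to 92 falls. They left the range within 1.5 times of the full counts without any 1 of the 4 KCl-treated libraries, either unstimulated S586A library or the second unstimulated S586E library.

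At DIV7 most rescued regions were outside the best 75000. None of the 24 DIV7 libraries held 621 of them (42.2%, against 28.9% of all regions), and all 24 held 69 (4.69%, against 20.7%). Since the regions were defined at DIV18 and the 3 experiments have their own libraries, age and experiment cannot be told apart here. The promoter regions printed above span this range. Those at Asb2 and Rd3l had no interval in any DIV7 library, whereas the Il33 region was ranked 24784 to 38171 in Arid2KO and 28362 to 71064 in non-targeting DIV7 libraries. The Gm46592 region lay between, with 44394 to 123413 in Arid2KO and 56784 to 114726 in non-targeting DIV7 libraries.

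FHT1015 libraries held fewer rescued regions than DMSO libraries except after 10 min with KCl, and most clearly in unstimulated neurons. With KCl, FHT1015 libraries held 392 and 386 after 10 min and 306 and 248 after 30 min, against 380 and 404 after 10 min and 348 and 328 after 30 min in DMSO libraries. The groups overlapped after 10 min and did not after 30 min. Without KCl, FHT1015 libraries held 312 and 296 after 10 min and 134 and 151 after 30 min. The matching DMSO libraries held 433 and 434 after 10 min and 373 and 403 after 30 min, with no overlap at either time. Shares of all regions held were 40.1% to 47.2% in FHT1015 and 45.2% to 47.6% in DMSO libraries.

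The test covered the 495 rescued regions held by at least 2 of the 16 drug libraries; the other 975 were not tested. Over all times and states limma called 21 higher and 329 lower with FHT1015, where 34.4% and 39.6% of all 66470 regions tested were called. As shares of all 1470 these are 1.43% higher and 22.4% lower, against 19.6% higher and 22.5% lower over the whole table. The share that fell was close to that of the table and is no result about the rescued regions; the share that rose was below that of the table. With KCl 37 rose and 86 fell (22.1% and 25.1% of all regions tested), and without KCl 12 rose and 385 fell (34.4% and 37.8%). After 10 min 11 rose and 129 fell (20.3% and 18.1%), and after 30 min 16 rose and 338 fell (32.4% and 40.1%). The rises with KCl dropped to 22 without the first DMSO library with 10 min of KCl. The 10 min counts dropped to 6 and 83 without the second unstimulated 10 min DMSO library. Without the first DMSO or the second FHT1015 library with 10 min of KCl, or the first unstimulated 10 min FHT1015 library, there were 7 rises after 10 min. Ranking summits gave 5 rises and 232 falls after 10 min and 7 rises after 30 min, and no filter gave 7 rises after 10 min.

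The regions with the largest falls lay inside Osbpl5, Dync1i1, Rab3c, Nav2 and Cacna1c. The calls at Dync1i1 and Nav2 held in each of 20 alternatives. Those at the other 3 were lost in 1 of 20, list length as a covariate, with limma adjusted p of 0.490 at Osbpl5, 0.0840 at Rab3c and 0.0560 at Cacna1c. Inside Rab3c, a GTPase of synaptic vesicles (chr13:110141060-110141715), the FHT1015 libraries with KCl had ranks of 35397, 32261, 63067 and 91029 and those without KCl 61323, 60880 and no interval in either 30 min library. The DMSO libraries had 28929, 25508, 19461 and 21274 with KCl and 36280, 28318, 38118 and 35837 without. The score averaged 0.98 ± 0.77 with FHT1015 and 2.23 ± 0.36 with DMSO (SD, n = 8 each), a difference of −1.25 ± 0.09 (SE; limma adjusted p = 5.87e-07), and within each state the 2 groups did not overlap.

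Inside Cacna1c (chr6:119056733-119057753) FHT1015 libraries with KCl had ranks of 37070, 29823, 54266 and 50493, and without KCl 39659, 39680, 65953 and no interval. DMSO libraries had 24697, 27664, 27430 and 18070 with KCl and 21453, 19220, 20881 and 19207 without. All 8 FHT1015 values were weaker than all 8 DMSO values, and the score was lower by −1.19 ± 0.14 (limma adjusted p = 9.54e-06). The regions in Dync1i1, a dynein intermediate chain gene, and Nav2, a gene of neurite outgrowth, were lower by −1.45 ± 0.08 (limma adjusted p = 1.17e-07) and −1.24 ± 0.08 (limma adjusted p = 3.29e-07).

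The largest fitted fall was in Osbpl5, a lipid transfer protein gene, at −1.66 ± 0.49 (limma adjusted p = 0.00831), but its values jumped. FHT1015 libraries had ranks of 6471 to 8642 in 4 libraries and 33247 to 51974 in the other 4, and DMSO libraries 3470 to 5282 in 7 and 34027 in 1. Where the rank was near the top the best interval was 2609 to 2874 bp wide, and elsewhere 515 to 967 bp wide, so the region took the rank of a wider neighbouring interval in some libraries. Ranked by single summits it was lower by −0.69. The Il33 promoter region printed above ranked 28773, 30616, 33132 and 36820 with FHT1015 and KCl and 59545, 58379 and no interval in either 30 min library with FHT1015 alone. In DMSO libraries it ranked 25710, 30139, 20562 and 28379 with KCl and 25091, 30829, 30594 and 29008 without. Its change was −0.31 ± 0.12 with KCl (limma adjusted p = 0.0510) and −1.62 ± 0.12 without it (limma adjusted p = 1.02e-06).

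Among the 21 that rose, the largest changes were near Gm5148 and Gucy1a2 and inside Sema5a, Kif5c and Wdr33. All 5 calls were lost with list length as a covariate (limma adjusted p of 0.0947 to 0.423). The region near Gm5148, a predicted gene (chr3:37965027-37965928), had ranks of 57645, 59329, 42907 and 45664 with KCl and 63891, 64548, 42129 and 47602 without in FHT1015 libraries. In DMSO libraries it had 85672, 80636, 83399 and 73674 with KCl and 102265, 89900, 99141 and 80250 without. The groups did not overlap, and the difference was 0.73 ± 0.08 (limma adjusted p = 7.60e-06). It was held by 8 of 8 FHT1015 and 1 of 8 DMSO libraries, so it entered the test through the group where it was high. The region in Sema5a (chr15:32610674-32611595) rose by 0.55 ± 0.05 (limma adjusted p = 2.53e-06), with ranks of 6448 to 10100 in FHT1015 and 11493 to 15327 in DMSO libraries. That same region had no interval in 3 of 4 non-targeting DIV7 libraries of the other experiment and rank 167224 in the fourth.

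The regions in Kif5c, a kinesin heavy chain gene, and Wdr33, an mRNA polyadenylation factor gene on chromosome 18, were held, of the drug libraries, by unstimulated FHT1015 ones alone. They entered the test through the group where they were high, so their values are given as a description. The Kif5c region had ranks of 58694, 64435, 64772 and 56667 in unstimulated FHT1015 libraries, against 144891, 87883, 162892 and 158320 in unstimulated DMSO libraries. The Wdr33 region had 64769, 71648, 68345 and 56373 in unstimulated FHT1015 libraries, against 148058, 220021, 161974 and 133346 in unstimulated DMSO libraries. With KCl all FHT1015 and DMSO scores were 0 at Wdr33, and at Kif5c 1 FHT1015 library was above 0, at 0.41. The region near Gucy1a2, a guanylate cyclase subunit gene, changed by 1.21 ± 0.17 with KCl and −0.03 ± 0.17 without. When single summits were ranked, its overall change turned to −0.087 (limma adjusted p = 0.328).

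The FHT1015 change differed between states in many rescued regions. The test of that difference, the change with KCl minus the change without, called 242 higher and 10 lower, against 15.2% and 12.4% of all regions tested. As shares of all 1470 this is 16.5% and 0.680%, against 8.66% and 7.06% over the whole table. In 441 of the 495 regions tested the change was higher with KCl than without it. The median change of these 495 was −0.05 with KCl and −0.75 without, and that of all regions tested −0.01 and −0.04. Between times, the change after 30 min minus that after 10 min was called higher in 2 and lower in 134 (4.72% and 15.3% of all regions tested; 0.136% and 9.12% of the 1470, against 2.68% and 8.69% of the whole table). Leaving out 1 library gave 1 to 5 higher and 97 to 164 lower between times, no filter 14 higher and ranking summits 10 higher; ranking summits gave 6 lower between states. KCl lasted as long as the drug in each group, so the 2 durations cannot be told apart in those libraries.

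**Figure D5:**
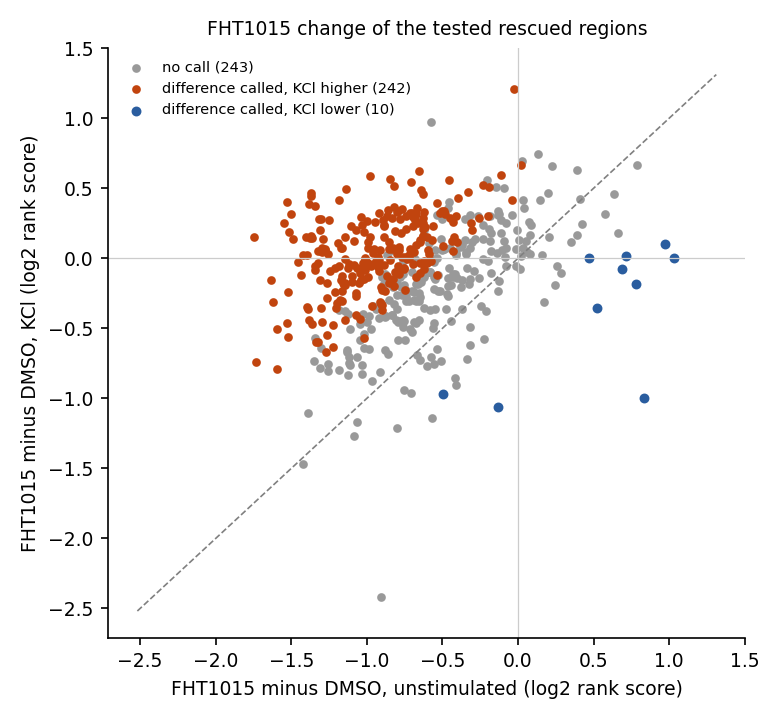
Change with FHT1015 (minus DMSO, log2 rank score) of the 495 rescued regions tested, with KCl (vertical) and without KCl (horizontal); the dashed line marks equal changes and colours mark the regions called for the difference between states. Of the 495, 441 lie above the line, and 242 of the called ones lie above it against 10 below.

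These counts moved with the length of the lists. With KCl, FHT1015 libraries had 153003 to 217724 autosomal intervals and a fold enrichment at rank 75000 of 4.58 to 6.02, against 227122 to 239494 and 6.80 to 7.33 in DMSO libraries. Without KCl they had 143439 to 194928 and 3.55 to 4.85, against 240823 to 276666 and 7.70 to 8.29. Once list length was added as a covariate, 0 rescued regions rose and 9 fell, and calls over all regions tested dropped to 2.25% and 2.08%. The median change of the 495 was then −0.29, against −0.42 without the covariate. The difference between states was called higher in 105 and lower in 3 (5.21% and 6.03% of all regions tested), with a median of 0.57 over the 495, against 0.62 without the covariate. Drug and list length cannot be told apart beyond that.

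Arid2KO and non-targeting libraries held similar numbers of rescued regions, and the test called none between them. Arid2KO libraries held 492 and 486 of the 1470 with KCl and 605 and 553 unstimulated, a mean of 36.3% ± 3.82 (SD, n = 4). Non-targeting DIV7 libraries held 527 and 491 with KCl and 558 and 552 unstimulated, a mean of 36.2% ± 2.07 (SD, n = 4). The ranges overlapped in both states. Each of the 2 sets held 367 rescued regions in all 4 of its libraries.

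Of the 673 rescued regions tested, limma called 0 higher and 0 lower in Arid2KO (0.00826% and 0.00496% of all 60540 regions tested), and 27 had an unadjusted p under 0.05. The KCl response also differed in 0 of them (0.00661% and 0.00165% of all were called higher and lower; 34 at an unadjusted p under 0.05). With no filter on regions held, 2 of all 1470 were called higher and 1 lower in Arid2KO, and the KCl response was called higher in 1 and lower in 2. The median difference was 0.00 over these regions and 0.01 over all. Near Dab2ip the Arid2KO libraries had ranks of 15006 and 25712 with KCl and 12444 and 17734 unstimulated, against 23666 and 12789 with KCl and 28477 and 14158 unstimulated in non-targeting libraries, a difference of 0.13 ± 0.25 (limma adjusted p = 0.988). At Csmd2 the difference was 0.64 ± 0.40 (limma adjusted p = 0.941) and at Rab3c −0.03 ± 0.17 (limma adjusted p = 0.998). The Rab3c region was among the strongest there, with ranks of 4686 to 8997 in Arid2KO and 5100 to 9789 in non-targeting libraries.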

How the data were processed

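ATAC-seq peak lists of 44 libraries were analysed, 1 list per library, with replicates not pooled. The submitters' processing notes name MACS2, bedtools, Bowtie2, Trim Galore, FastQC, Picard and SAMtools and the mouse build mm10; versions are not given in the sources used here. The fold enrichment in the deposited lists is a ratio computed by the authors at each summit. The −log10 p and −log10 q values in the deposited lists are the authors' as well, and they depend on depth. Read counts were not used, so no counting interval or floor could be given. Depth was read from the steps of the fold enrichment as a background level.

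In each list the autosomal intervals (19 autosomes) were put in order of best −log10 p. Intervals of the 12 rule libraries among the best 75000 were merged, and any overlap of 1 bp or more linked an interval to a region. Rank scores were fitted with limma 3.58.1 (R 4.3.3), using a mean for each group, moderated variances with a trend, and adjustment by Benjamini-Hochberg. All regions that 2 or more libraries of an experiment held were tested. The drug, Arid2 and S586 libraries were fitted apart, and the 12 rule libraries entered no fit. The method was tested on simulated data. Regions were assigned to the RefSeq GRCm38.p6 protein-coding gene they overlap or lie nearest to. Tables and plots used Python 3.11.15, pandas 2.3.3, numpy 2.4.6 and matplotlib 3.10.9.

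The rescued regions, the gene lists and the comparisons were chosen with earlier results of these data known. Named regions are the 8 strongest held by all 8 WT add-back and non-targeting libraries (1 of them is not reported here), the largest called changes (5 each way for FHT1015, 3 each way otherwise), at most 3 per gene list, 2 regions on either side of the rule's limit and 6 at promoter windows. Replicate numbers were not taken to pair libraries, since not every pair of groups was over 0.1: deviations of same-numbered libraries correlated at 0.0656 to 0.193 in the S586 set, over 0.1 in 5 of its 6 group pairs, and over 0.1 in 1 of 28 group pairs of the drug set and 0 of 6 of the Arid2 set. Alternatives were other list lengths, an overlap of 50%, all 4 libraries required, ranking by fold enrichment or by summit, no filter, a replicate block, list length as a covariate and leaving out each library.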

Additional observations from a re-analysis of the deposited data

Results flagged for a closer look

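The change of rescued regions with FHT1015 differed between KCl-treated and unstimulated neurons by a test of that difference. It was called higher with KCl in 242 rescued regions and lower in 10. These are 16.5% and 0.680% of the 1470, against 8.66% and 7.06% of the whole table. Between times, the change after 30 min was called higher than after 10 min in 2 rescued regions and lower in 134. These are 0.136% and 9.12% of the 1470, against 2.68% and 8.69% of the whole table. The share called lower was close to that of the table and is no result about the rescued regions. The lengths of the FHT1015 lists move with both contrasts, and once list length was a covariate the counts were 105 and 3 between states (5.21% and 6.03% of all regions tested) and 0 and 21 between times (0.569% and 2.95%). The median difference over the 495 regions tested was then 0.57 between states, against 0.62 without the covariate, and −0.30 between times, against −0.38. The part of list length beyond that was not tested.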

How the results depend on the processing

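Requiring all 4 libraries of WT add-back and of non-targeting gave 476 rescued regions. Leaving out 1 library, which loosened the rule for its arm, gave 1632 to 2417. An overlap of 50% and ranking by fold enrichment each gave the same 1470. Kept intervals lie inside the regions merged from them, so the overlap setting could not remove a member. Neither setting is read as support for the set. With lists of 60000 and 90000 intervals the mean share held was 42.9% and 81.9% in S586E, 55.7% and 91.0% in S586A, 20.8% and 31.2% in DMSO, 30.6% and 41.2% in Arid2KO and 30.0% and 41.0% in non-targeting DIV7 libraries; the cause is the length of the list itself. For FHT1015 minus DMSO, ranking summits gave 7 rises, and list length as a covariate 0 rises and 9 falls; leaving out a library gave 17 to 22 rises and 312 to 341 falls. For Arid2KO minus non-targeting, no filter gave 2 and 1 calls and leaving out a library 0 and 0. For S586E minus S586A, no filter and ranking summits gave 0 rises and leaving out a library 0 to 1. For KCl in the S586 libraries, no filter gave 8 rises and 9 falls and ranking summits 13 and 135, and leaving out a library gave 4 to 37 and 15 to 92. At Gucy1a2 the FHT1015 change reversed to −0.087 at summits. The replicate block gave 20 rises and 328 falls for FHT1015, 0 and 0 for Arid2KO, 2 and 0 for S586E minus S586A, and 41 and 90 for KCl; same-numbered libraries share only a number, and not every S586 pair correlated over 0.1. The cause of these moves was otherwise not tested. With 2 libraries per group and no counts, small differences between single regions were not detectable.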

Other observations

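The 2 sets of DIV7 controls held different rescued regions. All 8 DMSO libraries and 0 of 4 non-targeting DIV7 libraries held 17 rescued regions (1.16%, against 4.04% of all regions), the Sema5a region among them. The reverse, 0 of 8 DMSO and 4 of 4 non-targeting DIV7 libraries, was found in 57 (3.88%, against 2.12%). Both sets held 202 throughout (13.7%, against 26.1%), and neither set held 700 (47.6%, against 35.0%). The 2 sets come from separate experiments, so these differences were not tested.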
